A study of Rattus norvegicus with 6 samples.

Results

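The 9 genes of the thick filament listed here were examined, which are 9 of the 28293 genes of the rat myocardium table and were chosen by symbol: the heavy chains Myh6, Myh7 and Myh7b, the light chains Myl2, Myl3, Myl4 and Myl7, the myosin-binding protein gene Mybpc3 and the light chain kinase gene Mylk3. RNA came from the hearts of male wild-type rats, 3 sham (replicates 1 to 3) and 3 with myocardial ischemia-reperfusion injury (MI/RI, replicates 1 to 3). For MI/RI, the chest was opened under ventilation, the left anterior descending artery of the heart was tied for 30 min, and the tissue was taken after 6 h of reperfusion. The sample titles give the sham rats the same times, while the methods describe a sham operation for sham rats, and the strain, the age and the part of the heart sampled were not given in the sources used here. Values are FPKM, fragments per kilobase of gene model scaled to the size of the library, so that each is a level per length and a share of its library.

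The thick filament is a bundle of myosin molecules, each built from a pair of heavy chains that split ATP and pull on actin, and light chains wrapped around the heavy chain necks. In the rat ventricle the fast heavy chain alpha (Myh6) prevails in the adult, and the slow heavy chain beta (Myh7) prevails before birth and returns in hypothyroidism and pressure overload. The ventricle uses the light chains Myl2 and Myl3 and the atrium Myl7 and Myl4, so the light chain genes tell the chambers apart, while Mybpc3 ties myosin into the filament and Mylk3 phosphorylates Myl2.

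The heavy chain genes carry microRNA genes inside them, and their sequences are shown because they tie the members together at the level of the locus. The mature sequences below are those of RefSeq (assembly GRCr8), written 5′ to 3′ with the seed, bases 2 to 8, in capitals.
rno-miR-208a-3p, within Myh6 (chromosome 15, minus strand, hairpin chr15:32395552-32395634): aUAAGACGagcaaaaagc
rno-miR-208b-3p, within Myh7 (chromosome 15, minus strand, hairpin chr15:32421615-32421726): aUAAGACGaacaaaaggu
rno-miR-499-5p, within Myh7b (chromosome 3, plus strand, hairpin chr3:164570612-164570676): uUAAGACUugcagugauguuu
All 3 hairpins lie inside the span of the host gene in that assembly. The miRNAs of Myh6 and Myh7 have the same seed, UAAGACG, and that of Myh7b has UAAGACU. Of their hairpins, the one in Myh7 was counted at 0, 18 and 1 fragments in the sham rats and at 4, 14 and 12 in the MI/RI rats, and the one in Myh7b at 0 in all 6 libraries. The groups overlapped in the former (adjusted p = 0.12), and hairpin fragments are not a measure of the mature miRNAs.

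Several libraries stood apart before any test. The libraries held 36.8 to 49.8 (× 1000000) fragments by the steps of the FPKM values, and the 13 mRNAs encoded by mitochondrial DNA took 80.1% to 86.2% of the FPKM total of a sham library and 61.8% to 71.5% of an MI/RI library. FPKM are scaled to the size of the library, so other genes gain where these mRNAs take less, though not by an equal amount. The FPKM totals were 894902 to 928941 in the sham libraries and 731063 to 825490 in the MI/RI libraries. The change of each of the 9 genes, and the counts of the lists, are also given after rescaling without these mRNAs. That rescaling moved the median log2 fold change of the 10942 genes tested from 0.29 to -0.46. Sham replicate 1 was nearer to the MI/RI rats than the other sham rats were in cardiomyocyte genes: 7 markers (troponins, actins and calcium handling genes) summed to 7581 FPKM there, against 2804 and 2597 in sham replicates 2 and 3 and 16998 to 26424 in the MI/RI rats. MI/RI replicate 3 held a Myl7 value far from all others. In bulk tissue, fewer cells of a type and less RNA per cell cannot be told apart.

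In all, 4 of the 9 genes rose in the MI/RI rats and none fell: Myh6, Myl3, Myl2 and Mybpc3 passed limma at an adjusted p under 0.05. Among all 10942 genes tested, 25.5% passed as higher and 7.36% as lower, and the median log2 fold change was 1.17 over the 9 genes against 0.29 over all. Genes at higher levels passed more often. With a filter at a mean of 5 FPKM, 4 of the 8 thick filament genes left rose, against 1892 of 3784 genes tested. The medians there were 1.50 and 0.66. All 9 genes passed the filter of a mean of 0.5 FPKM. The values of 5 of the 9 did not overlap between the groups, all higher (Myl7 beside those 4), where 37.2% of all genes tested did so. With the replicate number as a block, Myl7 also passed, which made 5 of 9 against 28.2% of all genes. After rescaling without the mitochondrial mRNAs, Myh6 and Myl3 still passed as higher (7.25% of all genes) and Myh7b passed as lower (26.1% of all genes). Of each library's FPKM total, the 9 genes together took 0.599%, 0.185% and 0.142% in the sham rats (in the order of the replicates) and 1.57%, 1.15% and 1.08% in the MI/RI rats. Of the FPKM outside the mitochondrial mRNAs they made up 1.76% ± 1.09 (SD, n = 3) in the sham rats and 3.95% ± 0.160 (n = 3) in the MI/RI rats, with no overlap (two-sided exact permutation p = 0.1, the smallest that 3 against 3 allow).

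**Figure D1:**
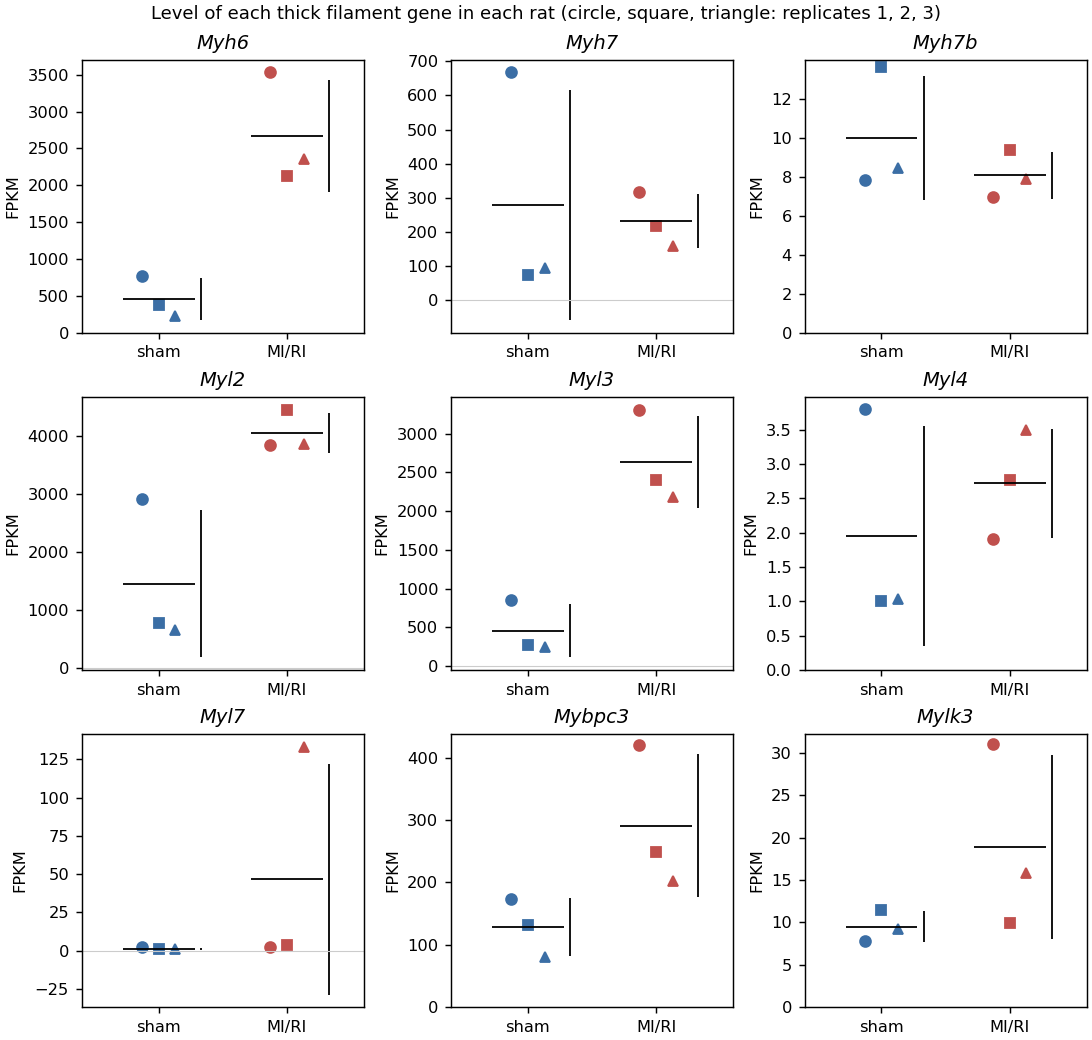
FPKM of each of the 9 thick filament genes in the 3 sham (blue) and 3 MI/RI (red) rats, with 1 panel and axis per gene. Horizontal lines are group means and vertical lines are the SD. Myh6, Myl2, Myl3, Mybpc3 and Myl7 have no sham rat at or above the lowest MI/RI rat, while sham replicate 1 exceeds all MI/RI rats in Myh7 and Myl4.

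Myh6, the gene of the fast alpha heavy chain (ENSRNOG00000025757), stood at 775, 372 and 230.0 FPKM in the sham rats and at 3529.8, 2126 and 2352 FPKM in the MI/RI rats, here and below in the order of the replicates. The lowest MI/RI rat lay above the highest sham rat, and the means were 459 ± 283 and 2669 ± 754 FPKM (SD, n = 3 each). The limma log2 fold change on the log2(FPKM + 0.1) scale was 2.68 (SE 0.42, adjusted p = 0.0035), a rise that 0.969% of the genes tested exceeded. It was 1.90 after rescaling without the mitochondrial mRNAs (adjusted p = 0.0014) and 0.36 (95% interval -0.43 to 1.15) relative to the cardiomyocyte markers. The gene with the closest profile over the 6 rats was Fabp3, which carries fatty acids in heart muscle, with a root mean square difference of 0.12 on the log2 scale. The next with a symbol was Bola3, an iron-sulfur cluster assembly gene, at 0.15.

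Myh7, the gene of the slow beta heavy chain (ENSRNOG00000016983), did not follow Myh6. Its level was 667, 73.2 and 94.0 FPKM in the sham rats and 318, 218 and 159.9 FPKM in the MI/RI rats. Sham replicate 1 was higher than every MI/RI rat, and the other 2 sham rats were lower than every MI/RI rat. The log2 fold change of 0.42 (SE 0.70, 95% interval -1.15 to 1.99, adjusted p = 0.67) did not pass, and the exact permutation p was 0.7. Without sham replicate 1 it was 1.43 with an adjusted p of 0.010 in limma, but 0.49 (adjusted p = 0.15) when the mitochondrial mRNAs were also left out of the scale. The same sham rat was high in Nppa, the atrial natriuretic peptide gene that ventricles express under load. Nppa stood at 65.3 FPKM there against 8.82 and 5.71 in the other sham rats. MI/RI replicate 1 was higher still, at 78.4 FPKM against 9.81 and 6.69 in the other MI/RI rats. Sham replicate 1 was also high in the smooth muscle genes Acta2 (104 against 31.1 and 22.0 FPKM) and Myh11 (22.0 against 7.56 and 4.39 FPKM). In the MI/RI rats Acta2 stood at 35.8 to 118 FPKM and Myh11 at 7.97 to 17.8 FPKM. The part of these genes in the Myh7 value was not tested. The 3 genes closest in profile to Myh7 were gene models named only by an identifier or a clone, with root mean square differences of 0.35 to 0.51.

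As a share of the alpha and beta heavy chain pair, the beta chain gene was lower in every MI/RI rat. Of Myh6 and Myh7 added together, Myh7 took 46.2%, 16.4% and 29.0% in the sham rats, and 8.27%, 9.30% and 6.36% in the MI/RI rats. The groups did not overlap, at 30.6% ± 15.0 and 7.98% ± 1.49 (SD, n = 3 each). This share does not depend on how a library is scaled. Only 0.969% of the genes tested rose by more than Myh6, so the mean log2 ratio to Myh6 falls for nearly all genes. That holds for the ratios to Myh6 below as well, and the share of genes with a non-overlapping fall was not computed. The log2 ratio of Myh7 to Myh6 was 2.26 lower on average (MI/RI minus sham -2.26, two-sided exact permutation p = 0.1, 0.13 after Benjamini-Hochberg adjustment over 8 ratios), and leaving out each rat in turn gave -2.79 to -1.73. The Myh6 and Myh7 transcripts are near-identical over long stretches, and how fragments that match both were counted is not given in the sources used here, so the split between them is uncertain to that extent.

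Myh7b, a slow-type heavy chain gene whose cardiac transcript mostly yields no protein (ENSRNOG00000018997), stayed at a far lower level. It stood at 7.85, 13.6 and 8.46 FPKM in the sham rats and at 6.94, 9.35 and 7.90 FPKM in the MI/RI rats, and the groups overlapped. Its log2 fold change of -0.27 (SE 0.27, 95% interval -0.86 to 0.32, adjusted p = 0.46) did not pass. It passed as lower after rescaling without the mitochondrial mRNAs (-1.05, adjusted p = 0.022) and after quantile normalization (-0.86, adjusted p = 0.045). Against Myh6 the log2 ratio was lower in every MI/RI rat than in any sham rat, with a difference of -2.96 (exact permutation p = 0.1, adjusted 0.13).

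**Figure D2:**
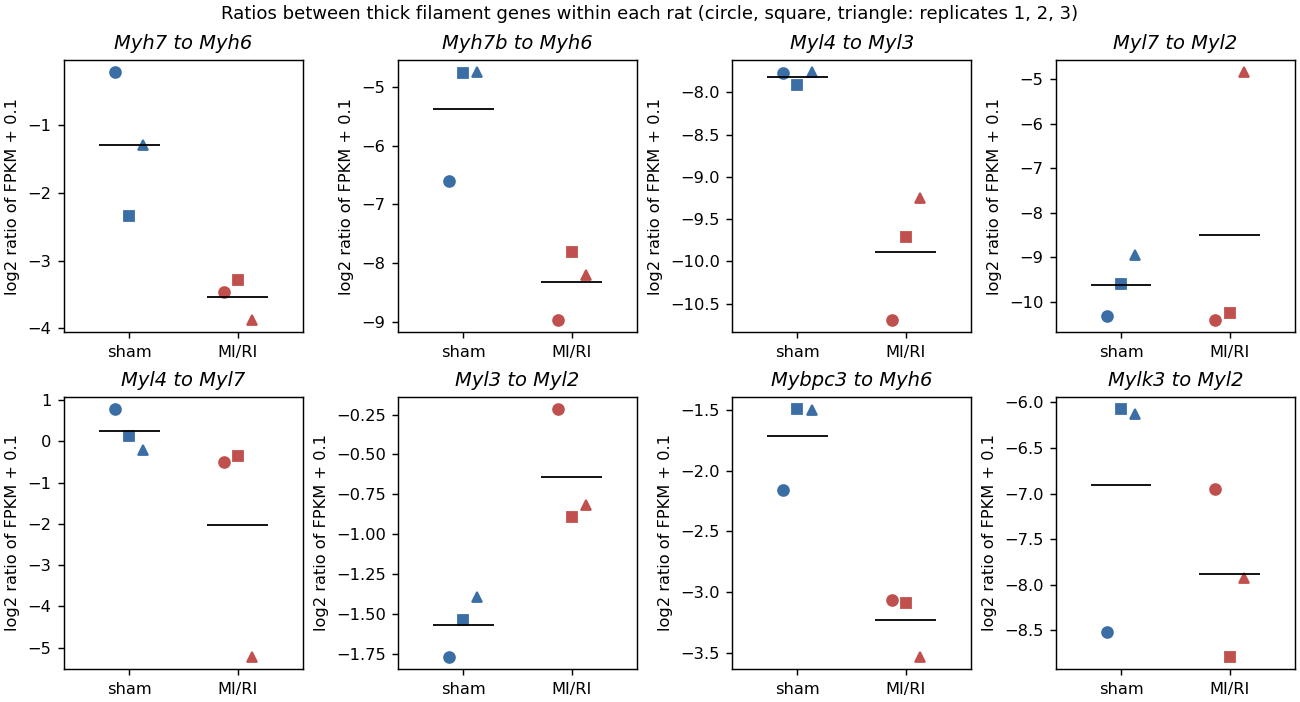
Log2 ratio of FPKM + 0.1 for 8 pairs of thick filament genes within each sham (blue) and MI/RI (red) rat, with the group mean as a line and an axis of its own per pair. Myh7, Myh7b and Mybpc3 against Myh6 and Myl4 against Myl3 and Myl7 are lower in all 3 MI/RI rats than in all 3 sham rats, Myl3 against Myl2 is higher, and Myl7 against Myl2 and Mylk3 against Myl2 overlap.

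The ventricular essential light chain gene Myl3 (ENSRNOG00000020955), whose protein stiffens the lever arm of myosin, rose like Myh6. Its values were 854, 268 and 246 FPKM in the sham rats and 3311, 2403 and 2184 FPKM in the MI/RI rats, with no overlap. The log2 fold change was 2.76 (SE 0.45, adjusted p = 0.0037) and 1.97 after rescaling without the mitochondrial mRNAs (adjusted p = 0.0014).

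The ventricular regulatory light chain gene Myl2 (ENSRNOG00000030848), whose phosphorylation tunes the force of contraction, rose by less. It stood at 2907, 779 and 647 FPKM in the sham rats and at 3843, 4452 and 3854 FPKM in the MI/RI rats. These groups did not overlap either, although sham replicate 1 came close to the lowest MI/RI rat. The log2 fold change was 1.83 (SE 0.50, adjusted p = 0.020), and rescaling without the mitochondrial mRNAs left 1.04 with an adjusted p of 0.056. Without sham replicate 2 or 3 the adjusted p was 0.097 and 0.082. The ratio of Myl3 to Myl2 within a rat was 0.294, 0.344 and 0.380 in the sham rats and 0.862, 0.540 and 0.567 in the MI/RI rats, so that Myl3 gained on Myl2 in all 3. The log2 difference was 0.93 (exact permutation p = 0.1, adjusted 0.13). Since 0.859% of the genes tested rose by more than Myl3, its mean log2 ratio rises against nearly all genes and not only against Myl2. Levels of light chains against each other depend on the gene length used, which the FPKM steps put at 2796 bases for Myl2 and 2121 for Myl3, and the difference between groups does not.

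The atrial light chain genes stayed far below the ventricular ones, with 1 exception. Myl4, the atrial essential light chain gene (ENSRNOG00000050675), stood at 3.80, 1.01 and 1.03 FPKM in the sham rats and at 1.90, 2.77 and 3.49 FPKM in the MI/RI rats, from 63 to 204 fragments a library. The groups overlapped because of sham replicate 1, and the log2 fold change of 0.69 (SE 0.46, 95% interval -0.34 to 1.72, adjusted p = 0.27) did not pass. Without sham replicate 1 it was 1.29 (limma adjusted p = 0.016). It was 0.41 (limma adjusted p = 0.32) when the mitochondrial mRNAs were also left out of the scale. Myl4 made up 0.443%, 0.375% and 0.418% of the Myl4 and Myl3 pair in the sham rats and 0.0574%, 0.115% and 0.160% in the MI/RI rats. The log2 ratio was lower without overlap, with a mean difference of -2.07 (exact permutation p = 0.1, adjusted 0.13). Only 0.859% of the genes tested rose by more than Myl3, so the mean log2 ratio to Myl3 falls for nearly all genes.

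Myl7, the atrial regulatory light chain gene (ENSRNOG00000014409), was high in a single rat. It stood at 2.16, 0.905 and 1.20 FPKM in the sham rats, at 2.73 and 3.57 FPKM in MI/RI replicates 1 and 2, and at 133 FPKM in MI/RI replicate 3, which is 37.4-fold above the next library. Behind these values were 168, 83 and 106 fragments in the sham rats and 185, 259 and 9122 in the MI/RI rats. Myl7 was the only gene that exceeded 20 FPKM in MI/RI replicate 3 and 8-fold the highest of the other 5 libraries. The log2 fold change was 2.96 (SE 1.18, 95% interval 0.32 to 5.596, adjusted p = 0.080), with an adjusted p of 0.027 under the replicate block and of 0.047 and 0.039 without MI/RI replicate 1 or 2. After rescaling without the mitochondrial mRNAs it was 2.21 (adjusted p = 0.094). Without MI/RI replicate 3 it was 1.17 (adjusted p = 0.043). When the mitochondrial mRNAs were left out as well, it was 0.38 (adjusted p = 0.55). The log2 ratio of Myl4 to Myl7 was lower in all MI/RI rats by a mean difference of -2.27 (exact permutation p = 0.1, adjusted 0.13). As 0.576% of the genes tested rose by more than Myl7, the mean log2 ratio to Myl7 falls for nearly all genes. Without MI/RI replicate 3 the difference was -0.67. The log2 ratio of Myl7 to Myl2 overlapped between the groups (difference 1.13, exact permutation p = 0.9).

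The other atrial genes did not share a value of this size, although some were highest in the same rat. In MI/RI replicate 3 the atrial peptide gene Nppa stood at 6.69 FPKM, within the 5.71 to 78.4 FPKM of the other 5 rats. Bmp10, a growth factor of the atrial wall, was at most 0.0969 FPKM in any rat, and that highest value was in MI/RI replicate 3. Myl4 in that rat was 3.49 FPKM, the highest of the MI/RI rats and under the 3.80 FPKM of sham replicate 1. Mybphl, a myosin-binding protein gene outside the atrial list, was 0.0412 FPKM there and 0 in every other rat. It did not pass the filter, and a value so close to 0 says little of a difference between rats. Sln, the atrial inhibitor of the calcium pump, was highest there at 3.52 FPKM, from 39 fragments, against 1.46 and 2.04 FPKM in the other MI/RI rats. The 7 atrial markers summed to 26.4 FPKM in MI/RI replicate 3 and to 13.8 to 97.2 FPKM over all rats. As deposited, 2 of the 6 tested rose, Sln and Stard10, where 25.5% of all genes passed as higher. After rescaling without the mitochondrial mRNAs 0 were higher and 1 lower, where 7.25% of all genes were higher and 26.1% lower. The 1 lower was the potassium channel gene Kcna5 at -1.13 (Sln 0.90, adjusted p = 0.14, and Stard10 0.36, adjusted p = 0.29). The closest profiles to Myl7 lay 1.28 to 1.32 away by root mean square on the log2 scale, where Myl7 itself varied by 2.35, so no gene followed it closely. How tissue of the atrium could bear on that 1 value was not tested beyond these levels.

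**Figure D3:**
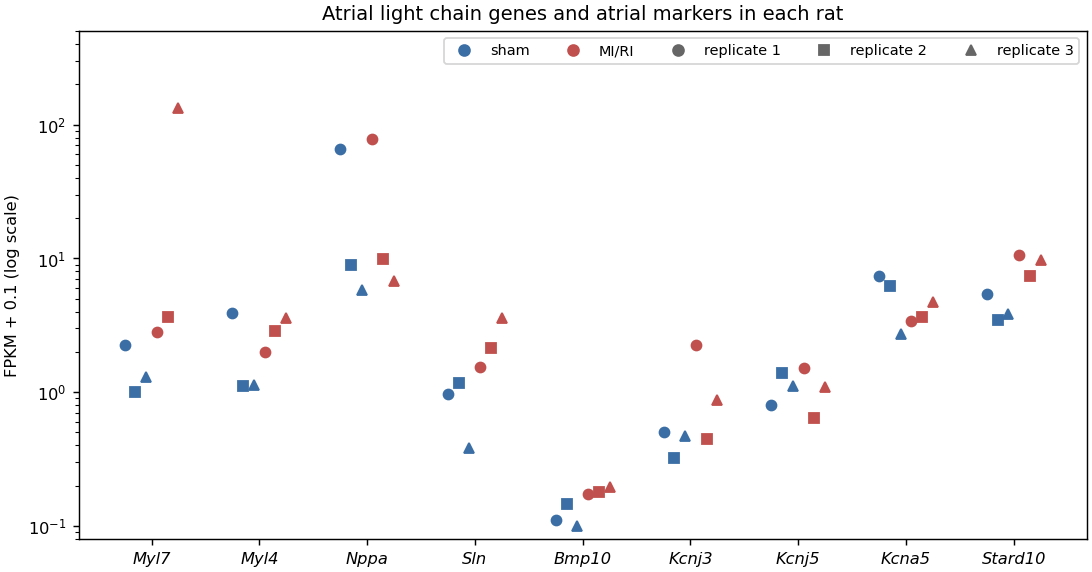
FPKM + 0.1 on a log axis for the atrial light chain genes Myl7 and Myl4 and 7 atrial markers in each sham (blue) and MI/RI (red) rat, with the replicate as the marker shape. The red triangle of Myl7 at 133 FPKM stands alone. In Myl4, Nppa, Kcnj3, Kcnj5, Kcna5 and Stard10 the same rat lies within the range of the others, and in Sln and Bmp10 it is the highest.

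Mybpc3, the gene of cardiac myosin-binding protein C (ENSRNOG00000012307), stood at 174, 132 and 81.0 FPKM in the sham rats and at 421, 249 and 203 FPKM in the MI/RI rats, with no overlap. Its log2 fold change was 1.17 (SE 0.36, adjusted p = 0.032), and after rescaling without the mitochondrial mRNAs it was 0.39 with an adjusted p of 0.30. The call was also lost without MI/RI replicate 1 or 2 (adjusted p = 0.089 and 0.055) and without sham replicate 2 or 3 (log2 fold changes of 1.22 and 0.87). The rise was smaller than that of Myh6 within each rat's scale: the log2 ratio of Mybpc3 to Myh6 ran from -2.16 to -1.49 in the sham rats and from -3.53 to -3.07 in the MI/RI rats. That difference was -1.51, and -1.73 to -1.36 when each rat was left out (exact permutation p = 0.1, adjusted 0.13).

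Mylk3, the kinase gene that acts on Myl2 (ENSRNOG00000017546), stood at 7.82, 11.5 and 9.18 FPKM in the sham rats and at 31.1, 9.98 and 15.8 FPKM in the MI/RI rats. MI/RI replicate 2 lay below the highest sham rat. The log2 fold change of 0.85 (SE 0.38, 95% interval 0.01 to 1.69, adjusted p = 0.11) did not pass, and rescaling without the mitochondrial mRNAs brought it to 0.07. Without MI/RI replicate 2 it was 1.23 (adjusted p = 0.029), and without MI/RI replicate 1, the highest rat, it was 0.42 (adjusted p = 0.30). The log2 ratio of Mylk3 to Myl2 overlapped between groups, with a difference of -0.98 (exact permutation p = 0.3, adjusted 0.34).

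Set against the cardiomyocyte markers, the 9 genes split by the size of their rise. The 7 markers tested had a median log2 fold change of 2.29, and 6 of them rose, as they did after rescaling without the mitochondrial mRNAs (median 1.51), led by Actc1, cardiac actin (3.79), Tnnc1, troponin C (2.73), and Actn2, which anchors actin at the Z-disc (2.46). When each rat was centred on these markers, Myh6, Myl3, Myl2 and Myl7 kept intervals that included 0. Mybpc3, Myh7, Myh7b, Myl4 and Mylk3 passed as lower, and so did 84.9% of all genes, whose median log2 fold change on this scale was -2.03. On that scale the sign turned to lower for all genes named below as rising, other than Myom3, Nkx2-5 and Ckm, and for Sln and Stard10 above. Sham replicate 1, the highest sham rat in those markers, was also the highest in Myh6, Myh7, Myl2, Myl3, Myl4, Myl7 and Mybpc3, and not in Myh7b or Mylk3.

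**Figure D4:**
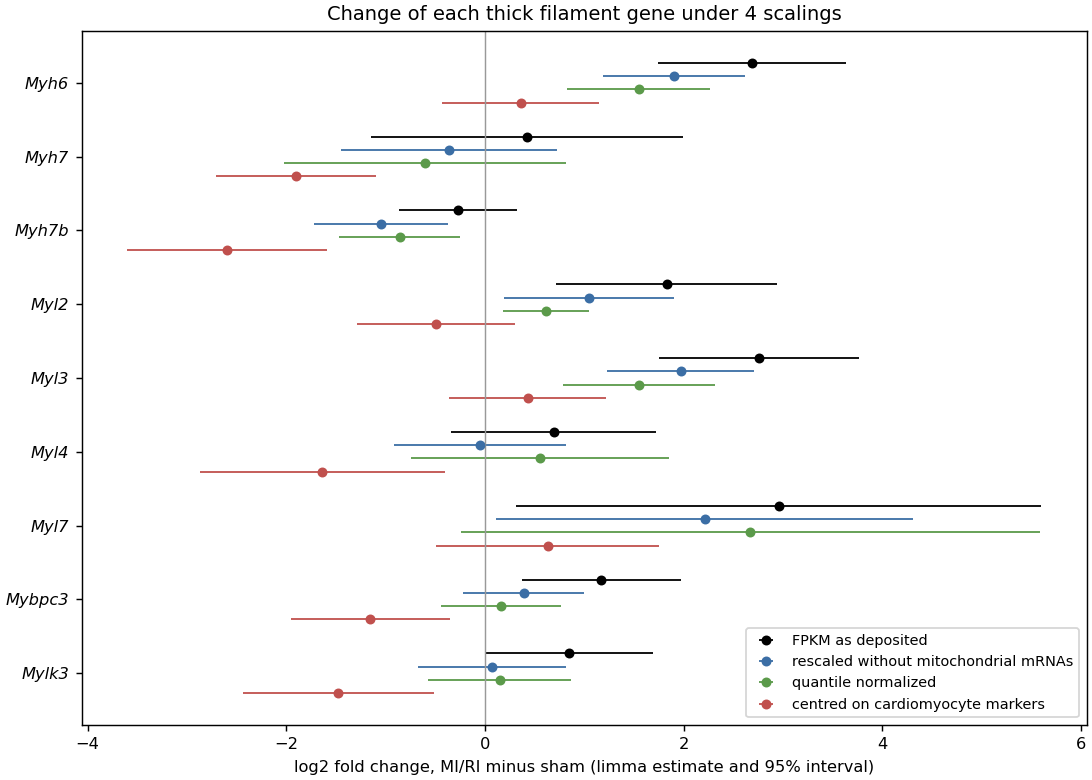
Limma log2 fold change (MI/RI minus sham) of each of the 9 genes with its 95% interval under 4 scalings of the same FPKM values. Myh6 and Myl3 lie above 0 in all 4 estimates, with an interval that includes 0 relative to the cardiomyocyte markers. Myl7 also lies above 0 in all 4, with an interval that includes 0 relative to those markers and after quantile normalization. The estimates of Myh7, Myl2, Myl4, Mybpc3 and Mylk3 lie below 0 under at least 1 of the scalings, and Myh7b lies below 0 in all 4.

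Other genes of the thick filament hold or fold myosin. Of 14 such scaffold and folding genes tested, 11 rose and 1 fell (median log2 fold change 1.29), where 25.5% of all genes passed as higher and 7.36% as lower. After rescaling without the mitochondrial mRNAs 6 rose and 2 fell, where 7.25% of all genes were higher and 26.1% lower, and the same shares apply to the lists that follow. Myom3, an M-band protein gene, rose by 2.73, Smyd1, a methyltransferase needed to assemble the sarcomere, by 1.996, and Trim54, a microtubule-bound ring finger gene, by 1.80 (adjusted p = 0.014, 0.0040 and 0.013), and all 3 also passed after that rescaling at 2.14, 1.24 and 1.02. The gene that fell was Trim63, the ubiquitin ligase that marks myosin for breakdown, at 24.3, 31.3 and 17.2 FPKM in the sham rats and 17.2, 12.3 and 10.6 FPKM in the MI/RI rats (log2 fold change -0.85, adjusted p = 0.047), named after its values were seen. It also passed after the rescaling (-1.63), and its direction was the same under every scaling run. The call was lost when each library was scaled to the same FPKM total (TPM, adjusted p = 0.14), without a filter and without the trend. It was also lost without sham replicate 1 or 2 and without MI/RI replicate 2 or 3.

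The other striated muscle myosins were close to 0. Of 13 genes of the skeletal and embryonic myosins and their binding proteins, 10 were in the table and 2 passed the filter, Myl1 and Mylpf, and neither passed the test. The heavy chain genes Myh2, Myh3, Myh4 and Myh8 were at most 0.0419 FPKM in any rat. Of the 10 skeletal muscle markers, 9 were in the table and 1 of 4 tested rose, Ckm, the creatine kinase gene that heart muscle also expresses (log2 fold change 2.68, adjusted p = 0.0056, and 1.89 after the rescaling, where it passed and 2 of the 4 were lower). The 2 were Tnnt3, a fast troponin T gene, and Mylpf (-1.81 and -1.52).

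Of the light chain kinases and phosphatase subunits, 3 of 9 tested rose and none fell (median 0.14), while after rescaling without the mitochondrial mRNAs none rose and 3 fell (median -0.58): Ppp1r12a, Ppp1r12c and Camk2d, 2 phosphatase regulators and a calmodulin kinase, by -1.50, -0.99 and -1.30. The 3 that rose were Rock2, a kinase that holds the phosphatase in check (0.96), Dapk3, a kinase of the light chain (0.96), and Ppp1cb, the catalytic subunit of the phosphatase (0.75), and none of the 3 passed after the rescaling, where Ppp1cb stood at -0.03. The kinases Mylk and Rock1 had log2 fold changes of 0.21 and -0.05 and did not pass. Of the smooth muscle and non-muscle myosins, 3 of 7 rose (median 0.89): Myh14 by 1.61, Myl12a by 1.19 and Myh9 by 0.89, all 3 without a call after the same rescaling.

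Of 10 regulators of cardiac myosin genes tested, 5 rose and none fell (median 0.88), and 2 did after rescaling without the mitochondrial mRNAs, Nkx2-5 (1.72) and Srf (1.32). Nkx2-5, a cardiac homeobox factor, stood at 9.62, 3.55 and 3.43 FPKM in the sham rats and at 52.8, 20.2 and 21.0 FPKM in the MI/RI rats (log2 fold change 2.498, adjusted p = 0.0054). Srf, the factor that binds CArG boxes, rose by 2.08 (adjusted p = 0.0017). Smarca4, a chromatin remodeller that acts on the balance of Myh6 and Myh7, rose by 1.29 (adjusted p = 0.015) and had a log2 fold change of 0.52 (adjusted p = 0.20) after the rescaling. The thyroid hormone receptor genes Thra and Thrb, which raise Myh6 and lower Myh7, had 0.62 and 0.15 and did not pass.

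**Figure D5:**
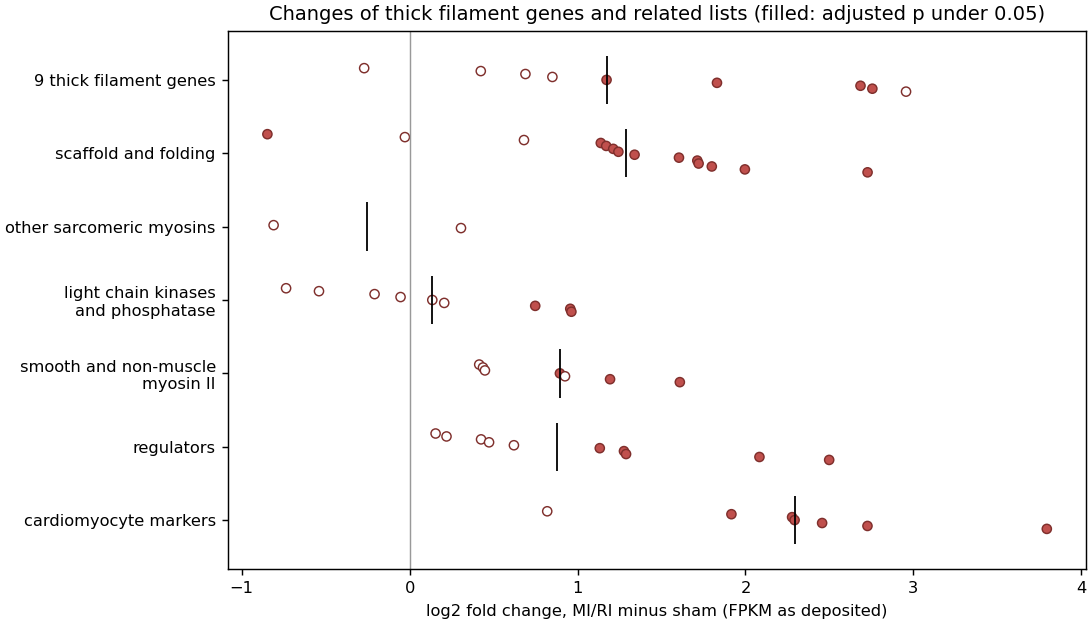
Limma log2 fold changes (MI/RI minus sham, FPKM as deposited) of the tested genes of 7 lists, 1 point per gene, filled where the adjusted p was under 0.05, with a bar at the list median. The medians run from -0.25 for the other sarcomeric myosins to 2.29 for the cardiomyocyte markers, with the 9 thick filament genes at 1.17.

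Other cells were followed by their markers. The fibroblast genes summed to 420 to 581 FPKM in the sham rats and 605 to 669 FPKM in the MI/RI rats, and 2 of 7 rose, against 0 higher and 2 lower after rescaling without the mitochondrial mRNAs. None of 7 endothelial genes passed, with sums of 156 to 200.5 FPKM and 165 to 191 FPKM, but 4 were lower after that rescaling and 6 after quantile normalization. Smooth muscle and pericyte genes overlapped between groups (85.4 to 271 FPKM and 142 to 328 FPKM, 1 of 6 higher and 1 lower, and 0 and 1 after the rescaling), and red blood cell genes did too (1207 to 1345 FPKM and 640.5 to 1858 FPKM, 0 of 3 tested passed, and 2 were lower after the rescaling). The leukocyte genes summed to 23.3 to 26.9 FPKM in the sham rats and 38.8 to 89.4 FPKM in the MI/RI rats, and 2 of 6 tested rose, the neutrophil genes S100a9 and S100a8, of which S100a8 did not pass after the rescaling (adjusted p = 0.11). Cd68 (log2 fold change 0.30, adjusted p = 0.29) and Itgam (under the filter, means of 0.277 and 0.479 FPKM) were also higher without overlap. Cd68 stood at -0.47 after the rescaling. Ptprc, the pan-leukocyte gene, lay the other way without overlap, with a log2 fold change of -0.93 (adjusted p = 0.067). So did Cd3e, a T cell gene under the filter, with means of 0.437 and 0.181 FPKM. Csf1r and Cd79a overlapped. The ventricular markers Irx4 and Hey2 did not pass, and Kcnip2, a potassium channel subunit gene, rose by 1.298 (adjusted p = 0.035), with 163 FPKM in MI/RI replicate 1 against 53.4 and 54.2 FPKM in the other MI/RI rats. After rescaling without the mitochondrial mRNAs it was 0.51 (adjusted p = 0.24), and after quantile normalization 0.32 (adjusted p = 0.50). The part of these cells in the results was not tested.

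The promoter of Myl3 is shown since the gene had the largest rise of those that passed and its window holds the motifs that muscle factors bind. The stretch is 233 bases of RefSeq assembly GRCr8, plus strand, chr8:119616844-119617076, with the motifs CATTCC (either strand) and the CArG box in capitals.
Myl3 upstream: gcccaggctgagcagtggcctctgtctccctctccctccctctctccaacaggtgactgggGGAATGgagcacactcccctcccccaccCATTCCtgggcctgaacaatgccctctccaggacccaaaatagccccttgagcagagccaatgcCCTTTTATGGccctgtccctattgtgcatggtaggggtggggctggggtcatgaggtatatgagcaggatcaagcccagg
Positions are counted back from the annotated start, and the last 17 bases before it, inside the span of the gene, were left out. The M-CAT motif, which TEAD factors bind, was found at positions -189 to -184 on the minus strand and -161 to -156 on the plus strand, and the CArG box, which Srf binds, at -97 to -88. In the 250 bases before the start, CATTCC was found in 3 of the 8 members with a promoter in the table (Myh6, Myl3 and Mylk3) and in 11.8% of 27455 promoters. The CArG box, CC and GG around a run of A or T, was in 1 of 8 and in 412 of those 27455, and was added to the search after these windows were seen. TATAAA was in 1 of 8 (Myl4, 13.1% of promoters) and the GATA motif GATAAG in 1 of 8 (Mybpc3, 6.08%). The loose form of the CArG box (CC and GG around any bases, at the same spacing) and the E-box CANNTG were in 7 of 8 each, and in 65.4% and 65.2% of promoters. The loose form contains the CArG box and overlaps the CATTCC at -161. Of the 8 windows, 6 lie inside the RefSeq span of their gene, so other transcripts start further upstream. A match describes these letters and not a site in use.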

How the data were processed

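Libraries were made from total RNA with a stranded kit, and the submitters' processing notes name STAR and HTSeq. The authors deposited 1 table of FPKM values per gene and sample, and the build, the annotation and the tool versions are not given in the sources used here. The 30452 rows were reduced to 28293 genes by summing rows that shared a symbol (7092 rows had none). Each column was matched to its sample by name.

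Log2(FPKM + 0.1) of the 10942 genes with a mean of at least 0.5 FPKM was compared between 3 sham and 3 MI/RI rats with limma 3.58.1 in R 4.3.3 (intensity trend), with Benjamini-Hochberg adjustment over all genes tested and a threshold of 0.05. For single values and the 8 ratios, an exact permutation test (two-sided) was run over the rats. On simulated data, limma found 160 of 200 genes that had been shifted by a log2 value of 2, in the right direction, and made 11 false calls over 10942 genes. The labels number the rats and do not say more of how replicates relate, so p-values measure the spread between these 6 samples. Deviations from the group means of same-numbered samples correlated at 0.20, 0.12 and 0.12, all over 0.1 (the differently numbered sham replicate 3 and MI/RI replicate 2 also reached 0.12), and the number was therefore used as a block in an alternative fit.

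Low FPKM values are whole multiples of what 1 fragment is worth. From these steps and the lengths of microRNA hairpins (21 of 30 gave the same depth within 0.6%), fragment counts were recovered, a step added after the data were seen. They were used to show depth and not for tests. The 9 members and all lists were chosen with earlier results of these data known. The named genes are the 9 members, at most the 3 largest changes that passed in each list, genes a result turns on, and the 3 closest profiles to Myh6, Myh7 and Myl7. Coordinates and sequences are from RefSeq (GRCr8), whose promoter table holds 8 of the 9 members, without Myl2. Beside the 7 atrial markers given, 1 further gene of that list is not reported here. Alternatives covered pseudocount, filter, scaling, trend, block, row choice and samples. The rescaling without the mitochondrial mRNAs combined with leaving out a rat was added after the data were seen.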

Additional observations from a re-analysis of the deposited data

How the results depend on the processing

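The number of the 9 genes that rose, 4 as reported, was 2 without a filter on low values, 2 with median centring, 2 after rescaling without the mitochondrial mRNAs and 2 when MI/RI replicate 3 was also left out, and 0 after centring on the cardiomyocyte markers, where all genes are set against a group that itself rose. Leaving out each rat gave 2 to 6 higher and 0 lower: 2 without sham replicate 2 or 3 (Myh6 and Myl3) and 6 without sham replicate 1. The replicate block gave 5 higher and changed the call of Myl7 alone among the 9 genes. The number that fell, 0 as reported, was 1 after quantile normalization, 1 after rescaling without the mitochondrial mRNAs, also without MI/RI replicate 3 or sham replicate 1, and 5 after centring on the cardiomyocyte markers. Among all 10942 genes the calls went from 2790 higher and 805 lower (77.6% higher) to 2020 and 1554 (56.5%) with median centring, 1441 and 1559 (48.0%) after quantile normalization, 793 and 2857 (21.7%) after rescaling without the mitochondrial mRNAs, 35 and 9294 (0.375%) after centring on the cardiomyocyte markers and 1892 and 166 (91.9%) at a mean of at least 5 FPKM.

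Myh7 changed sign, with a log2 fold change of -0.60 after quantile normalization, -0.36 after rescaling without the mitochondrial mRNAs, -0.17 when MI/RI replicate 3 was left out of that, -1.90 after centring on the cardiomyocyte markers and -0.17 without sham replicate 2 (leave-one-out range -0.17 to 1.43). Centring on those markers also gave -0.50 for Myl2, -1.64 for Myl4, -1.15 for Mybpc3 and -1.48 for Mylk3. Myl4 was -0.049 after rescaling without the mitochondrial mRNAs and -0.29 without MI/RI replicate 3 as well, and Mylk3 was -0.21 in that rescaling without sham replicate 1. The cause was not tested.

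Of the 42 tested genes in the 5 lists of related genes, 22 rose and 1 fell. The higher count was 14 without a filter, 10 after quantile normalization, 8 after the mitochondrial rescaling (9 without MI/RI replicate 3, 7 without sham replicate 1) and 0 after centring on the cardiomyocyte markers. Leaving out each rat gave 11 to 20, with 11 without sham replicate 3. The lower count was 0 without a filter, 0 as TPM, 0 without the trend, 3 after median centring, 3 after quantile normalization, 6 after the mitochondrial rescaling (5 without MI/RI replicate 3, 7 without sham replicate 1), 30 after centring on the cardiomyocyte markers, 2 under the replicate block and 0 to 2 when each rat was left out. Of the ratios, Myl4 to Myl3 moved to -0.995 after quantile normalization. Leaving out each rat gave -3.10 to -0.67 for Myl4 to Myl7, where MI/RI replicate 3 carries the difference, and -0.70 to 2.08 for Myl7 to Myl2. Ratios that involve Myl4 or Myl7 rest on 63 to 259 fragments in all libraries but 1.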
